A study of Homo sapiens with 74 samples.

Results

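The HOX gene clusters with the DNA around them were examined for chromatin accessibility in HAP1 cells, a near-haploid human line derived from chronic myeloid leukaemia. The 4 domains were taken by position (hg19) as chr7:26100000-28300000 for HOXA, chr17:45600000-47800000 for HOXB, chr12:53300000-55500000 for HOXC and chr2:176000000-178000000 for HOXD. They held 594 of the 145536 accessible regions of the knockout table, and all 594 lay wholly inside their interval. The central 200 kb of each interval is called the core and the rest the low or high flank, by coordinate. Each flank is 1 Mb long, or 0.9 Mb at HOXD. Whether each core holds every gene of its cluster was not checked, so a flank may hold part of a cluster. HOXA held 147 regions, of which 28 were in the core, HOXB held 161 with 20 in the core, HOXC 186 with 23, and HOXD 100 with 21. The same 594 regions were present in the knockdown table, which had 145730 regions.

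HOX genes encode transcription factors that give cells their position along the body axis, and the order of the genes in a cluster follows the order of their expression domains. The clusters are textbook targets of the opposed Polycomb and Trithorax systems. BAF complexes, which use the ATPase SMARCA4 or SMARCA2 to move nucleosomes, belong to the Trithorax side. ARID1A and ARID1B are alternative subunits of the canonical BAF complex. ARID2, PBRM1, BRD7 and PHF10 belong to PBAF, and BRD9 to the non-canonical complex. SMARCC1, SMARCC2, SMARCD1, SMARCD2 and SMARCD3 form the scaffold, and DPF1, DPF2 and DPF3 are reader subunits.

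The knockout libraries came from 26 knockout clones of 22 genes, with 2 libraries of each clone, and from 4 libraries of wild-type cells (clone C631). ACTB, BCL7A, BCL7B, BCL11A, BCL11B, SMARCA2 and the genes named above were each knocked out. SMARCA4, ARID1A, ARID1B and BCL7B had 2 clones each. Every other knockout was 1 clone, so the gene and the clone cannot be told apart there. The wild-type libraries fell into set 1 (replicates 1 and 2) and set 2 (replicates 5 and 6) by the form of their titles. Clones ARID1B 582_5, BCL7B 4278_10 and SMARCC2 6062_10 belonged to set 2 and were compared with its wild type, and the other 23 clones shared the set 1 wild type. In a separate table, 16 libraries in 8 groups of 2 combined a knockdown with a genotype. These were knockdown of SMARCA4, of ARID2, of both, or a control knockdown in wild-type cells, SMARCA4 or control knockdown in ARID2 knockout cells, and ARID2 or control knockdown in SMARCA4 knockout cells. The total count per library was 5085811 to 12422345 in the knockout table, with a median count per region of 17 to 43 over both tables. Levels are given as CPM (counts scaled to a common library size) with normalised library sizes. A region is called where the adjusted p over all regions of its table was under 0.05 in edgeR's quasi-likelihood test.

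RefSeq lists 39 HOX genes, with 11 in HOXA, 10 in HOXB, 9 in HOXC and 9 in HOXD. Toward higher coordinates, HOXA runs to HOXA13 and EVX1, and HOXB to HOXB13. HOXC begins with HOXC13 and HOXD with EVX2 and HOXD13. The clusters also carry microRNA genes, whose mature products target HOX messages among others. Their sequences are shown because 3 of the clusters share a seed: MIR196A1 of HOXB, MIR196A2 of HOXC and MIR196B of HOXA give products with the same seed. Capitals mark the seed, bases 2 to 8, and the sequences are from RefSeq (GRCh38.p14).
hsa-miR-196a-5p: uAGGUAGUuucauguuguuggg
hsa-miR-196b-5p: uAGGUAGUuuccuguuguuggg
hsa-miR-10a-5p: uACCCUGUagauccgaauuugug
hsa-miR-10b-3p: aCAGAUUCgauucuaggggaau
hsa-miR-615-3p: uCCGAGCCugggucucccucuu
The miR-196a and miR-196b products differ at 1 position, A12C, counted from the 5′ end of miR-196a. MIR10A lies in HOXB, MIR10B in HOXD and MIR615 in HOXC.

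CpG, the dinucleotide at which DNA is methylated, is dense in many HOX promoters. The 27 HOX promoters listed by RefSeq, which run from 250 bases before to 50 bases after the start, held a median of 22 CpG (0 to 44), against 14 (0 to 77) over all 35116 promoters. They belong to 20 genes, with only HOXB1 from HOXB and only HOXC4 and HOXC5 from HOXC, and the rest from HOXA and HOXD. The most CpG-rich was that of HOXA13, shown as an example of this composition with each CG in capitals (GRCh38.p14 chr7:27200042-27200341, minus strand, 44 CpG).
HOXA13 promoter: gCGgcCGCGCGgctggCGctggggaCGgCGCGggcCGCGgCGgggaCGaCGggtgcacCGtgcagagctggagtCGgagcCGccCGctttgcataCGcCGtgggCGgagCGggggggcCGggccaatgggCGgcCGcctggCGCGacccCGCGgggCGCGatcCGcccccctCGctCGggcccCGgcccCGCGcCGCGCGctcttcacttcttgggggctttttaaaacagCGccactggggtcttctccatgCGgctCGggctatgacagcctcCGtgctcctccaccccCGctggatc
The genome build of the count tables is hg19, and no annotation or DNA of that build was used here, so regions are given by position and are not assigned to genes.

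In wild-type cells the cores were dense in accessible regions, and at HOXA, HOXB and HOXD these were stronger than in the flanks. The cores held 100 to 140 regions per Mb and the flanks 42.2 to 89.0 per Mb. The median wild-type level was 10.8 CPM per region in the HOXA core, 7.42 CPM in the HOXB core, 6.39 CPM in the HOXD core and 4.07 CPM in the HOXC core. In the low and high flanks it was 3.61 and 3.92 CPM at HOXA, 5.21 and 4.16 CPM at HOXB, 3.20 and 3.49 CPM at HOXD, and 6.98 and 4.26 CPM at HOXC, where both flanks lay above the core. Over all regions of the table it was 3.47 CPM. Of the 92 core regions 70 lay above the median of all regions, and of the 502 flank regions 302 did.

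The most accessible region of each core was called in none of the 22 knockouts. At HOXA this was chr7:27135153-27136750, with 21.3 to 42.5 CPM over the 52 knockout libraries (median 31.9) and 33.7 ± 3.17 CPM in wild type (SD, n = 4). At HOXB it was chr17:46702209-46704394, with 10.3 to 27.8 CPM over the knockout libraries (median 20.7) and 19.2 ± 1.57 CPM in wild type (SD, n = 4). At HOXC it was chr12:54410264-54412152, with 33.0 to 54.1 CPM (median 41.9) in knockout libraries and 38.5 ± 2.41 CPM in wild type (SD, n = 4). At HOXD it was chr2:176961722-176962744, with 22.8 to 46.0 CPM (median 29.8) in knockout libraries and 32.0 ± 5.61 CPM in wild type (SD, n = 4). In each case the wild-type libraries lay within the range of the knockout libraries.

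Loss of SMARCA4, the ATPase, was called at the most HOX-domain regions of any knockout, and the direction differed between domains. Over both clones, 60 of the 594 regions (10.1%) fell and 71 (11.95%) rose, against 13.9% that fell and 8.00% that rose over all regions of the table. In the HOXA flanks 27 regions fell and 4 rose, and in the HOXD flanks 15 fell and 5 rose. In the HOXB flanks 3 fell and 21 rose, and in the HOXC flanks 9 fell and 33 rose. The median log2 fold change of the flank regions was -0.18 at HOXA, -0.13 at HOXD, 0.18 at HOXB and 0.22 at HOXC, against 0.01 over all regions. The regions that rose were the stronger ones, with a median of 15.8 CPM, compared with 5.5 CPM for those that fell and 3.94 CPM for those not called. Leaving out wild-type replicate 1 or 2 brought the count of 131 to 69 or 64, with the remaining library assumed to vary like the other groups.

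**Figure D1:**
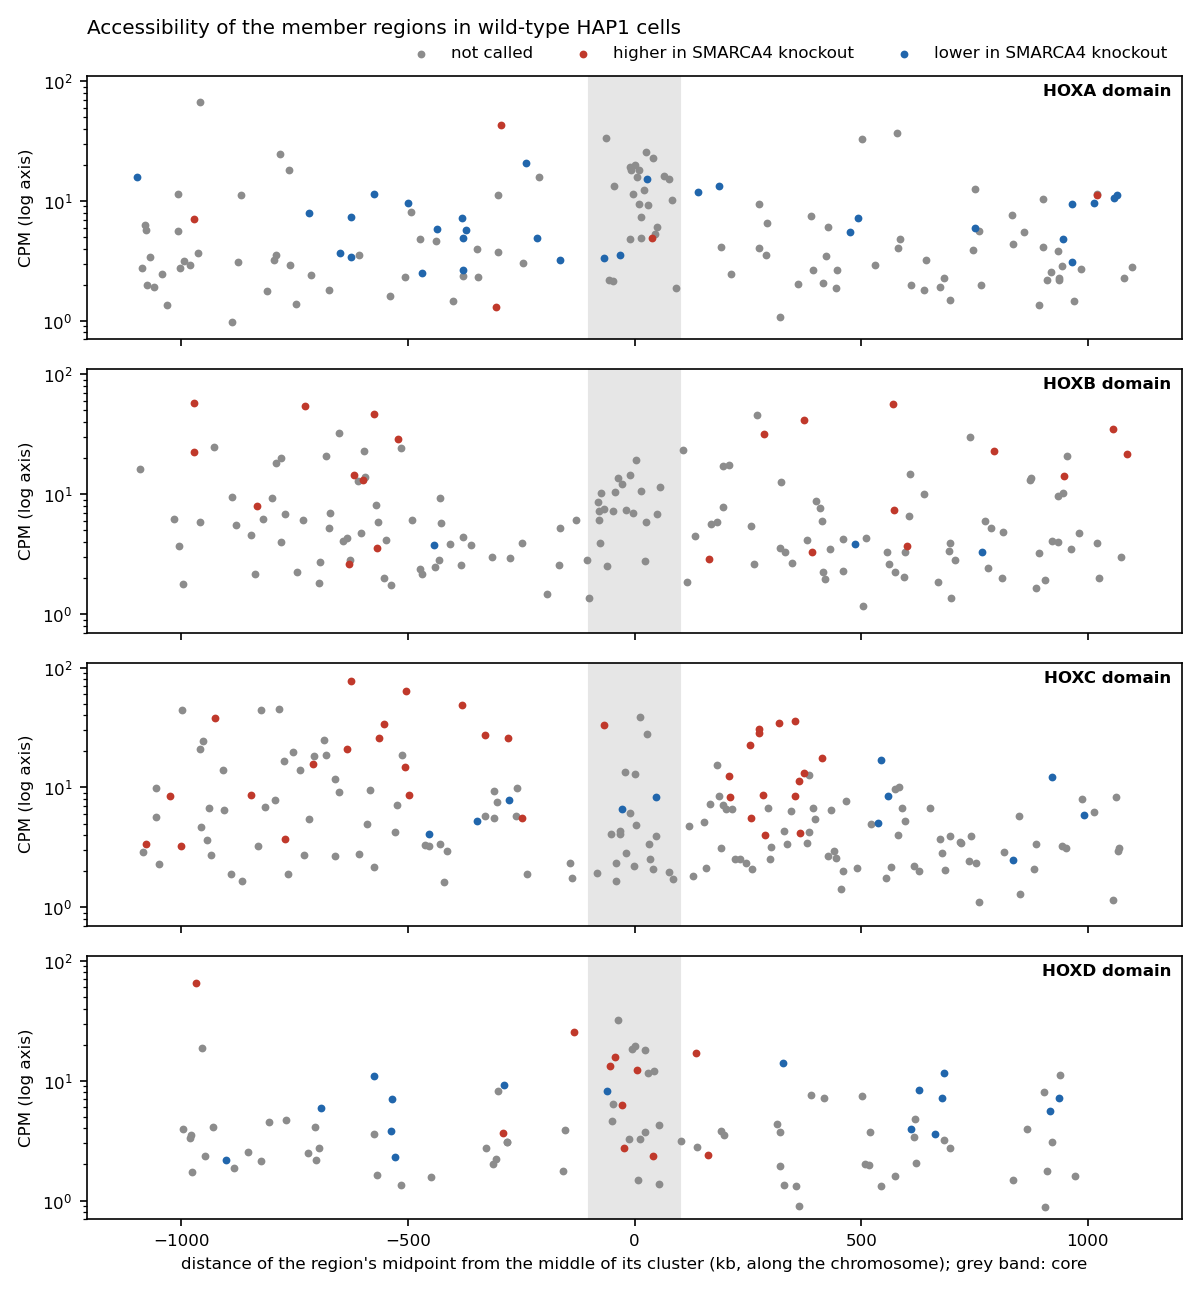
Accessibility of each of the 594 regions in wild-type cells (mean CPM of the libraries, log axis) by distance in kb from the centre of its HOX domain. Red points rose and blue points fell in SMARCA4 knockouts, grey points were not called, and the grey band is the core. Blue points outnumber red in the HOXA flanks (27 and 4), and red outnumber blue in the HOXC flanks (33 and 9), most of them high on the axis.

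The 2 wild-type sets differed in the same flanks with no gene removed. Set 1 was lower than set 2 at 16 regions and higher at 16, against 4.29% lower and 1.54% higher over all regions. In the flanks, set 1 was lower at 7 regions and higher at 0 in HOXA, lower at 2 and higher at 6 in HOXB, lower at 1 and higher at 7 in HOXC, and lower at 5 and higher at 3 in HOXD. The median log2 difference of the flank regions, set 1 minus set 2, was 0.18 at HOXB and 0.18 at HOXC, and -0.04 at HOXA and 0.01 at HOXD. The part of library differences of this kind in the flank results was not tested. Without replicate 1, 2, 5 or 6 the count of 32 was 13, 9, 6 or 21.

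The individual SMARCA4 calls named here were selected by size within each domain among regions above the median level whose groups did not overlap. At HOXA the largest decrease was at chr7:27675915-27676636 in the high flank, with 0.744, 1.11, 1.91 and 1.88 CPM in SMARCA4 knockouts and 4.37 and 6.69 CPM in wild type (log2 fold change -2.03 ± 0.32 SE, adjusted p = 1.08e-07). At HOXC the region chr12:53320924-53321704 in the low flank had 16.2, 18.2, 12.5 and 12.5 CPM in SMARCA4 knockouts and 4.66 and 2.87 CPM in wild type (1.94 ± 0.27, adjusted p = 1.96e-09). At HOXD the region chr2:177161615-177162400, 162.0 kb above the centre, had 12.5, 19.0, 11.6 and 17.3 CPM in SMARCA4 knockouts and 3.20 and 1.43 CPM in wild type (2.66 ± 0.30, adjusted p = 4.39e-13). By this selection all 4 knockout libraries stood apart from both wild-type libraries in each case, and the 3 calls were kept in every alternative run. The HOXB domain had no decrease that met these conditions, and its largest increase, chr17:47300755-47301285 (0.96 ± 0.29, adjusted p = 0.00938), was lost without wild-type replicate 1 (adjusted p = 0.177) or without replicate 2 of clone 2878_6 (adjusted p = 0.0745).

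Within the HOX cores SMARCA4 loss was called at 14 of 92 regions, and 7 of these were in HOXD, where 6 rose and 1 fell. In all 6 of the 92 fell and 8 rose, against 13.9% and 8.00% over all regions. The HOXA core had 3 that fell and 1 that rose, the HOXC core 2 that fell and 1 that rose, and none of the 14 lay in the HOXB core. When the counts of each core were summed and tested among 1 Mb bins of the genome, the HOXD core rose. The HOXD core sum was 280.3, 272.8, 262.6 and 242.9 CPM in SMARCA4 knockouts and 208.8 and 207.7 CPM in wild type. The log2 fold change was 0.34 ± 0.064 (SE, adjusted p = 1.6e-05), and the call was kept in all 8 alternatives run. These left out wild-type libraries but no SMARCA4 library. The means of the SMARCA4 clones were 276.6 and 252.8 CPM, above those of the other 24 clones and both wild-type sets, which were 171.6 to 229.4 CPM.

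**Figure D2:**
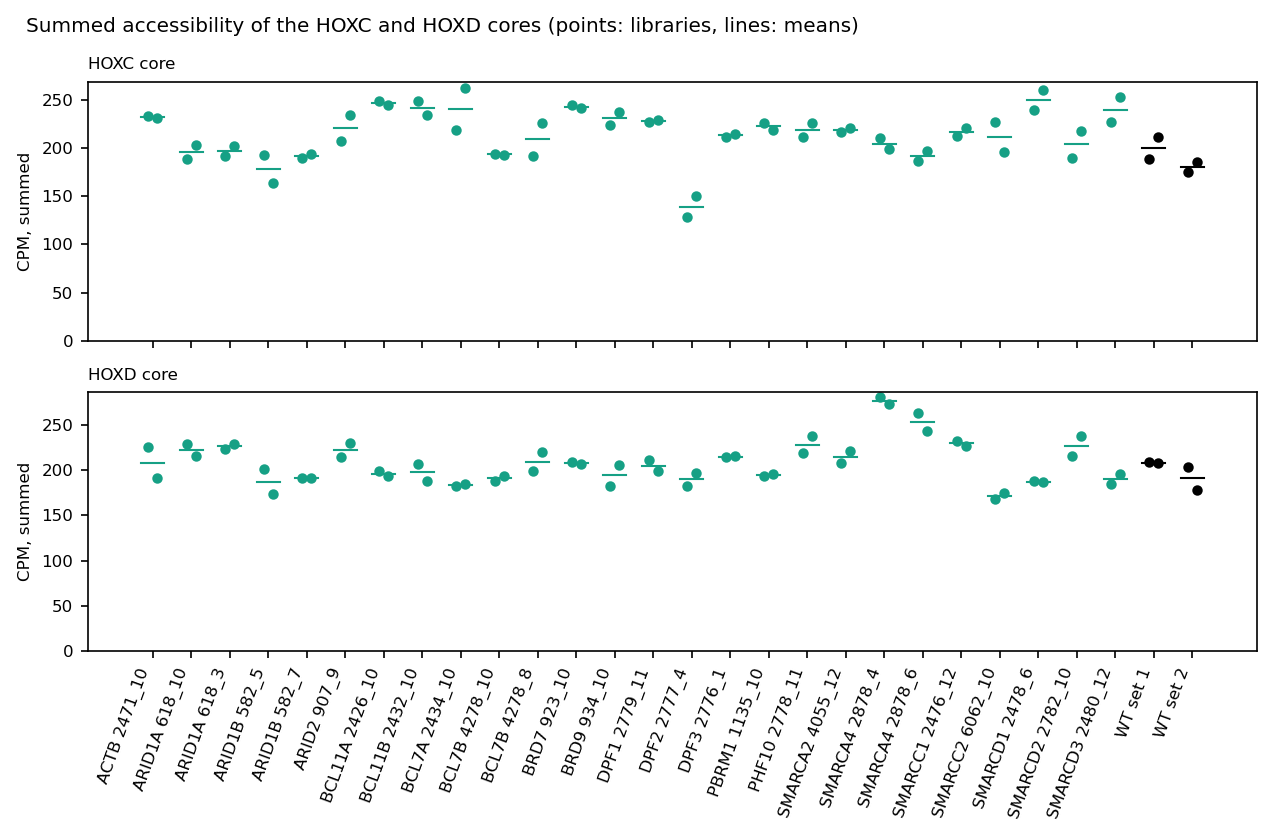
Summed accessibility of the HOXC and HOXD cores in CPM for each knockout clone (green) and wild-type set (black), with 1 point per library and a line at the mean. The SMARCA4 clones, at 276.6 and 252.8 CPM, stand highest at the HOXD core, and the DPF2 clone, at 139.3 CPM, lowest at the HOXC core.

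The summed flanks rose at HOXB and HOXC and fell at HOXA, as more of their regions did, but the HOXD low flank rose although more HOXD flank regions fell. Of the 12 summed features, 8 were called in the SMARCA4 knockouts, against 55.7% of all such features of the genome. The HOXB high flank summed to 831.7 ± 12.2 CPM in SMARCA4 knockouts (SD, n = 4) and 706.5 ± 11.4 CPM in wild type (SD, n = 2), a log2 fold change of 0.24 ± 0.058. The HOXB low flank (0.22 ± 0.060) and the HOXC low flank (0.29 ± 0.061) rose likewise. These 3 calls were kept in every alternative run, none of which left out a SMARCA4 library. The HOXC high flank (0.19) and the HOXD low flank (0.14) lost the call without wild-type replicate 1. The HOXD low flank lost it in 2 of 8 alternatives in all. The HOXA high flank (-0.18) lost it without wild-type replicate 2 (adjusted p = 0.469), and the HOXA low flank (-0.11) in 6 alternatives, among them the loss of either set 1 wild-type library (adjusted p = 0.129 and 0.183). The difference between wild-type sets was of the same size in 4 features, against 43.4% of all features: set 1 minus set 2 was 0.21 in the HOXB high flank, 0.24 in the HOXB low flank, 0.22 in the HOXC high flank and 0.21 in the HOXC low flank. Leaving out replicate 2 ended each of these 4 calls, and so did leaving out replicate 6. The HOXB high flank and the HOXC low flank lost the call in 3 of 7 alternatives in all.

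**Figure D3:**
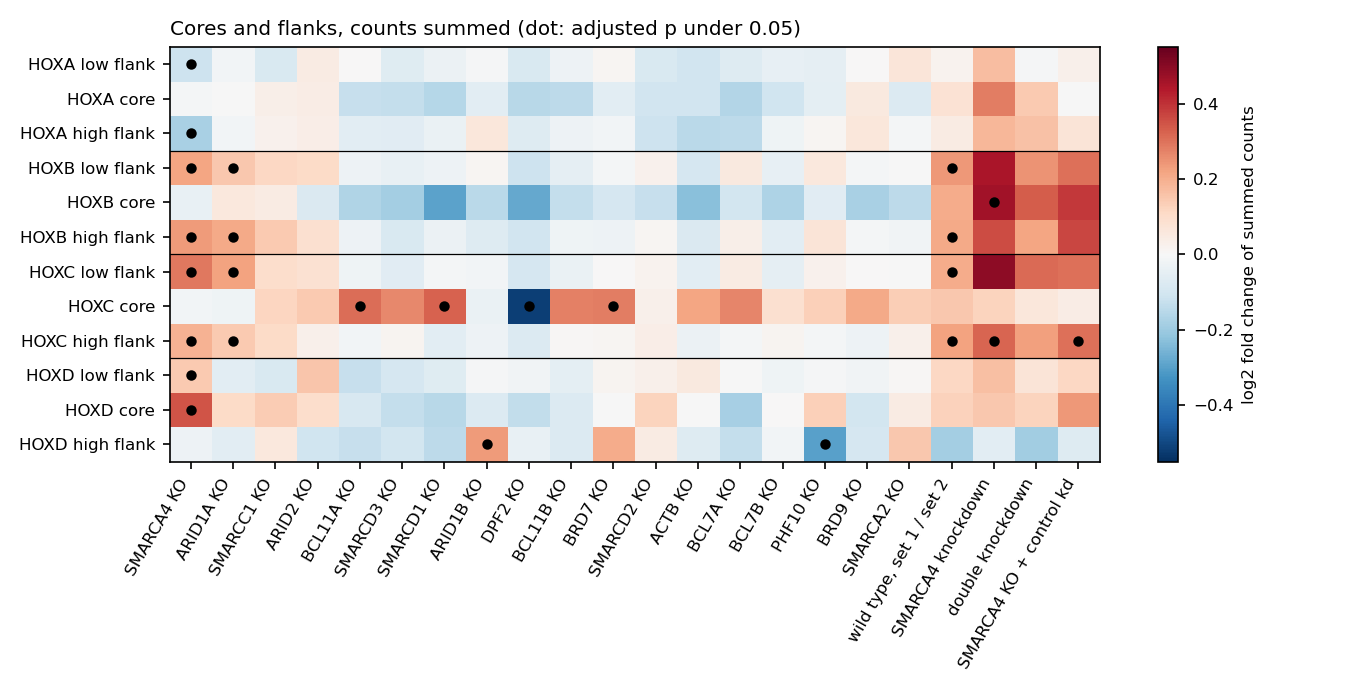
Log2 fold change of the summed counts of each core and flank (down the page) in the knockouts with at least 1 called region, the wild-type sets (set 1 over set 2) and 3 knockdown groups (across), on a colour scale from blue (lower) to red (higher), with a dot where the feature was called. The SMARCA4 knockout has 8 dots, and the deepest blue is the DPF2 knockout at the HOXC core, at -0.52.

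ARID1A, a canonical BAF subunit, gave fewer calls, with more decreases than increases against its own wild-type set. In the ARID1A knockouts 50 of 594 regions fell (8.42%) and 20 rose (3.37%), against 10.3% and 2.27% over all regions. Decreases outnumbered increases in the flanks of HOXA, with 15 that fell and 3 that rose, and of HOXD, with 14 that fell and 3 that rose. The HOXB flanks had 6 that fell and 7 that rose, and the HOXC flanks 7 that fell and 5 that rose. In the cores 8 fell and 2 rose. Leaving out wild-type replicate 1 or 2 brought the count of 70 to 41 or 39. With all wild-type libraries pooled the directions were nearly even, with 74 regions that fell and 68 that rose.

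Several ARID1A regions were the same ones as in the SMARCA4 knockouts, which share the wild-type libraries, so the values are given side by side. At chr7:28256650-28257801, 1057.2 kb above the HOXA centre, the ARID1A knockouts had 3.02, 2.83, 2.68 and 2.76 CPM, the SMARCA4 knockouts 2.98, 2.33, 1.80 and 2.76 CPM, and wild type 9.51 and 8.49 CPM. At chr2:177676823-177677533 in the HOXD high flank, ARID1A knockouts had 1.79, 1.57, 1.95 and 1.66 CPM, SMARCA4 knockouts 1.49, 1.89, 1.91 and 1.66 CPM, and wild type 5.53 and 5.74 CPM. The knockout libraries of both genes lay below both wild-type libraries at each region, which was a condition for naming them. In the other direction, chr7:27490894-27491996, 291.4 kb above the HOXA centre, had 10.1, 12.2, 16.96 and 19.6 CPM in ARID1A knockouts, against 3.01 and 4.66 CPM in wild type (1.91 ± 0.26, adjusted p = 2.16e-09). The SMARCC1 knockout had 12.9 and 16.97 CPM there (1.98 ± 0.28, adjusted p = 5.91e-08). These calls were kept in every alternative run.

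Of the summed features, 4 rose in the ARID1A knockouts, against 35.9% called among all features: both HOXB flanks (0.21 and 0.15) and both HOXC flanks (0.14 and 0.22). They are the 4 features in which the wild-type sets differed. All 4 were lost without wild-type replicate 1. The HOXB low flank was lost in 3 of 8 alternatives, among them also without replicate 2.

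In the knockout of SMARCC1, a scaffold subunit, 18 regions fell (3.03%) and 11 rose (1.85%), against 4.19% and 1.00% over all regions. The HOXD flanks had 9 that fell and 3 that rose, and the cores 3 that fell and 4 that rose, of which 3 increases were in the HOXC core. The count of 29 dropped to 19 or 11 without SMARCC1 replicate 1 or 2, and to 15 or 17 without wild-type replicate 1 or 2. In the knockout of ARID2, the PBAF subunit, 6 regions fell (1.01%) and 2 rose (0.34%), against 1.11% and 0.682% over all regions, and all 8 were in flanks. That count was 3 without ARID2 replicate 1 and 5 or 4 where wild-type replicate 1 or 2 was left out.

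Among the 18 other knockouts, 47 of 594 regions (7.91%) were called in at least 1, against 9.07% of all regions. The 47 dropped to 27 or 26 where wild-type replicate 1 or 2 was left out. SMARCD3 had 12 called regions (0.842% over all regions), ARID1B 10 (3.22%), SMARCD1 10 (1.58%), BCL11A 9 (0.675%), DPF2 7 (1.79%) and BCL11B 6 (0.893%). BRD7 had 5 (0.695%), SMARCD2 5 (0.423%), ACTB 4 (1.35%), BCL7A 4 (0.467%), BCL7B 4 (1.40%), PHF10 3 (0.391%), BRD9 2 (0.497%) and SMARCA2 1 (0.234%). No region was called in the DPF1, DPF3, PBRM1 or SMARCC2 knockouts by edgeR, against 0.0515%, 0.0667%, 0.423% and 0.0941% of all regions. At an unadjusted p under 0.05 these 4 had 33, 32, 53 and 36 of the 594 regions, against 7843, 9142, 13587 and 10001 of all 145532. Over all 22 knockouts 183 regions (30.81%) were called in at least 1, against 29.84% of all regions, and 26 of the 92 core regions were among them.

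**Figure D4:**
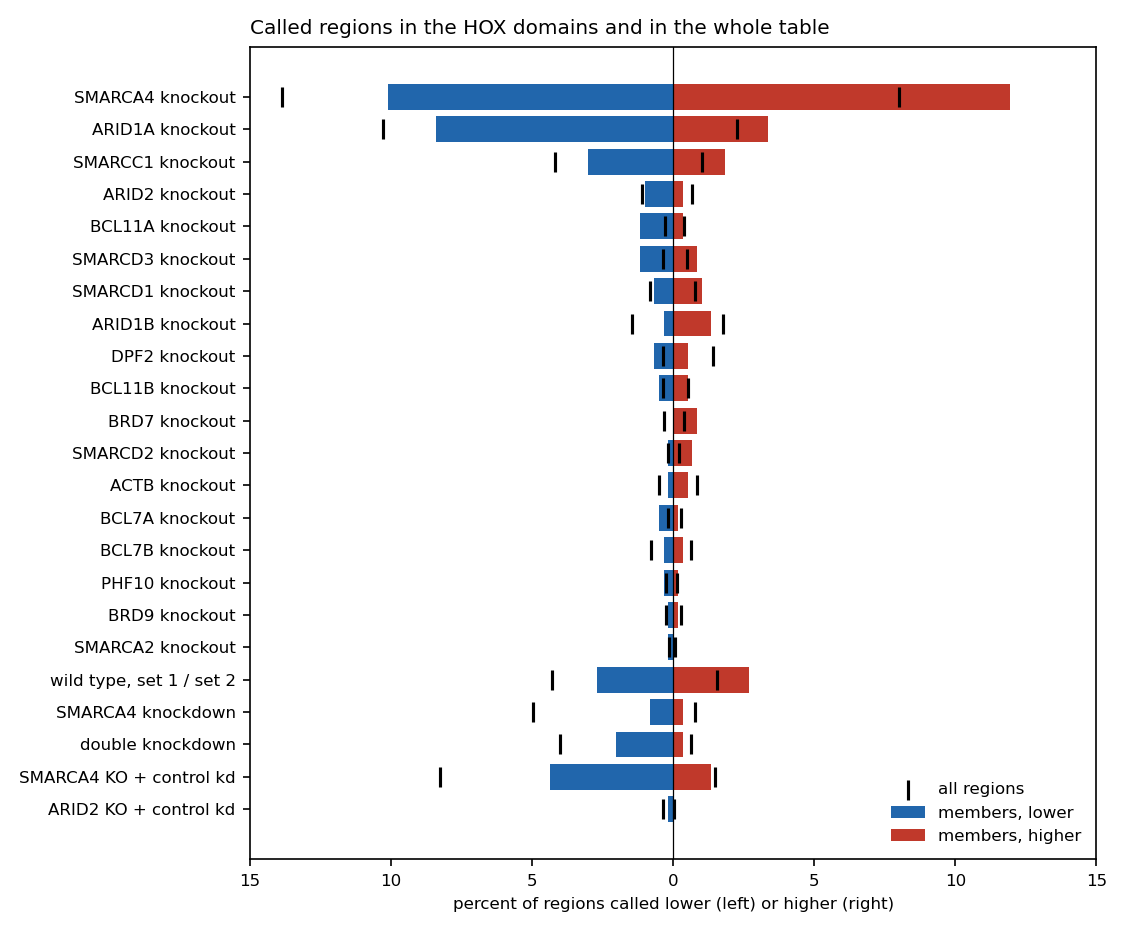
Percent of the 594 HOX-domain regions called lower (blue, to the left) and higher (red, to the right) in each comparison with at least 1 call. Black ticks give the same percent over all regions of the table. Increases in the SMARCA4 knockout reach 11.95% of the HOX-domain regions, past the tick at 8.00%, and decreases reach 10.1%, short of the tick at 13.9%.

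Most regions that changed did so in few knockouts. Of the 183, 102 were called in exactly 1 knockout, 81 in 2 or more and 5 in 5 or more, with 8 as the most at a single region. At 9 regions the direction differed between knockouts. These numbers were not counted over all regions, so they describe the members alone. The most knockouts called at any region of the genome was 22.

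A small set of regions was called in several knockouts at a time. The regions described next were chosen after their values were seen, for a call in at least 5 knockouts, or in at least 3 for core regions. All but the ARID1B and BCL7B comparisons rest on the same 2 wild-type libraries, so the calls at a region are not independent of each other.

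In the HOXC core, chr12:54379704-54380317, 20 kb below the centre, rose in 6 knockouts. The 2 libraries had 9.33 and 11.6 CPM in SMARCD3, 9.73 and 10.2 in SMARCC1, 8.28 and 9.36 in SMARCD1, 7.76 and 9.17 in BCL11A, 8.42 and 8.15 in BCL7A, and 7.70 and 6.24 in BCL11B knockouts. Wild type had 2.81 and 3.11 CPM in set 1 and 3.87 and 1.59 CPM in set 2. The log2 fold change was 1.24 to 1.82, and the 6 clones lay above all 4 wild-type libraries. Every other library of the table had at most 5.21 CPM at this region. The SMARCC1 and SMARCD3 calls were kept in every alternative run. The BCL11A call was lost without either wild-type library (adjusted p = 0.149 and 0.0897) or BCL11A replicate 2 (0.118), and the SMARCD1 call without wild-type replicate 1 (0.0835). The BCL7A and BCL11B calls were lost without any 1 of their 4 libraries (adjusted p = 0.0541 to 0.21 and 0.0908 to 0.322).

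These 6 clones shared another feature. At 12 regions of chr10:89472170-89697913 the SMARCD3, SMARCC1, SMARCD1, BCL11A, BCL7A, BCL11B and PHF10 clones had summed means of 0.71 to 1.47 CPM, and the other 19 clones and both wild-type sets had 99.7 to 154 CPM. PHF10 had 4.24 and 3.19 CPM at the HOXC region and was not called there. The part of the event on chromosome 10 in the shared HOX pattern, or in other calls of the clones that carry it, was not tested.

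At the HOXD core region chr2:177005038-177005858, 5.4 kb above the centre, 4 of these clones were low. The libraries had 2.54 and 4.47 CPM in BCL11A, 2.58 and 4.17 in BCL7A, 3.59 and 6.00 in SMARCC1, and 4.42 and 5.17 in SMARCD3 knockouts. Wild type had 14.7 and 12.1 CPM in set 1 and 11.6 and 10.4 CPM in set 2. The log2 fold changes were -1.92 ± 0.26, -1.98 ± 0.26, -1.48 ± 0.25 and -1.48 ± 0.25 (adjusted p = 2.95e-08, 1.81e-08, 5.66e-06 and 2.73e-05, in that order). The SMARCA4 knockouts moved the other way, with 23.3, 32.3, 22.1 and 26.3 CPM (0.95 ± 0.20, adjusted p = 5.47e-05). These 5 calls were kept in every alternative run. BCL11B had 7.00 and 9.06 CPM and SMARCD1 8.77 and 11.1 CPM, and neither was called.

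The knockout of DPF2, a reader subunit, had the largest change of a summed core in any knockout. The region chr12:54332051-54333925, 67.0 kb below the centre, had 12.6 and 9.85 CPM in the DPF2 knockout and 33.8 and 30.6 CPM in wild type (-1.52 ± 0.18, adjusted p = 6.7e-10). It was the second strongest region of the HOXC core in wild type. The summed HOXC core was 128.8 and 149.8 CPM in the DPF2 knockout and 188.8 and 211.1 CPM in wild type, with no overlap (-0.52 ± 0.086, adjusted p = 8.68e-05), against 5.93% of all summed features called. Both calls were kept in every alternative run, but no DPF2 library was left out for the sum. At the same region SMARCC1 knockouts had 20.5 and 21.04 CPM (-0.64 ± 0.18, adjusted p = 0.0135), and the set 2 clone BCL7B 4278_10 had 19.5 and 21.9 CPM. SMARCA4 knockouts had 49.5, 47.7, 55.9 and 56.9 CPM (0.70 ± 0.15, adjusted p = 0.000114), and SMARCD1 knockouts 45.6 and 51.9 CPM (0.60 ± 0.17, adjusted p = 0.04). The median over the 52 knockout libraries was 42.7 CPM there, above all 4 wild-type libraries (30.6 to 34.5 CPM). SMARCD1 was thus like clones that were not called, such as BRD7 (47.6 and 46.4 CPM). The SMARCC1 call was lost without either SMARCC1 library (adjusted p = 0.121 and 0.0878) or wild-type replicate 1 (0.177). The SMARCD1 call was lost without any 1 of its 4 libraries (0.0696 to 0.371).

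The summed HOXC core rose in SMARCD1 (0.32 ± 0.085), BCL11A (0.31 ± 0.085) and BRD7 (0.28 ± 0.085) knockouts, against 10.1%, 2.55% and 4.46% of all summed features called. The sums were 239.8 and 259.9 CPM in SMARCD1, 249.3 and 244.3 in BCL11A, and 244.8 and 241.3 in BRD7 knockouts, against 188.8 and 211.1 CPM in wild type. All 3 calls were lost without wild-type replicate 1. The BRD7 call was lost in 5 of 8 alternatives, among them also without replicate 2, 5 or 6. The PHF10 knockout had a lower HOXD high flank (-0.30 ± 0.078), against 1.64% of all features called, and lost this call without wild-type replicate 1 (adjusted p = 0.269) or 2 (0.147).

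At other HOXC core regions different knockouts were called. At chr12:54372575-54373217, 27.1 kb below the centre, SMARCA4 knockouts had 2.11, 1.11, 3.14 and 3.20 CPM and ARID1A knockouts 3.46, 2.93, 4.27 and 2.76 CPM, against 5.82 and 8.01 CPM in wild type. The log2 fold changes were -1.61 ± 0.27 and -1.04 ± 0.25, and the second was lost without wild-type replicate 2 (adjusted p = 0.115). BCL11B (13.7 and 12.96 CPM) and SMARCD3 (13.7 and 12.5 CPM) rose there by 0.95 and 0.93, and both calls were lost without any 1 of their 4 libraries (adjusted p = 0.0897 to 0.484). At chr12:54389029-54389730, 10.6 kb below the centre, SMARCC1 (11.6 and 13.9 CPM) and SMARCD3 (12.96 and 14.9 CPM) rose while ARID1A (2.57, 2.41, 4.76 and 3.43 CPM) fell, against 6.41 and 5.74 CPM in wild type. Each of these 3 calls was lost without at least 1 library: ARID1A without wild-type replicate 1 (adjusted p = 0.119), SMARCC1 without its replicate 2 (0.0818) or wild-type replicate 2 (0.0634), and SMARCD3 without its replicate 2 (0.083) or either wild-type library (0.0557 and 0.12). Clones that were not called also lay on both sides of wild type at this region. BCL11A (11.6 and 9.66 CPM) and BCL7A (10.1 and 10.7 CPM) were above it, and ARID2 (3.69 and 3.94 CPM) and DPF2 (2.57 and 3.63 CPM) below.

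A pair of neighbouring regions rose in BRD7 and BCL7B knockouts, and each of them in other knockouts as well. ACTB is beta-actin, itself a subunit of these complexes. At chr12:54368271-54368933, 31.4 kb below the HOXC centre, BRD7 had 11.4 and 12.2 CPM (1.59 ± 0.31), ACTB 10.2 and 10.1 CPM (1.37 ± 0.31), and SMARCD1 10.7 and 7.14 CPM (1.19 ± 0.32), against 3.98 and 3.82 CPM in set 1 wild type. BCL7B had 8.01 and 10.2 CPM in clone 4278_10 and 10.5 and 9.67 CPM in clone 4278_8, against 3.44 and 5.05 CPM in set 2 and 3.98 and 3.82 CPM in set 1 wild type (1.23 ± 0.23, adjusted p = 0.000186), and this call was kept in every alternative run. BRD7 lost the call without wild-type replicate 1 (adjusted p = 0.05), ACTB without its replicate 2 (0.0588) or either wild-type library (0.0978 and 0.0993), and SMARCD1 without its replicate 1 (0.368) or either wild-type library (0.186 and 0.191). At chr12:54367390-54368082, next to it, BRD9 had 11.4 and 12.2 CPM (1.51 ± 0.30), BRD7 10.1 and 11.5 CPM (1.39 ± 0.30) and BCL7B 7.66, 6.71, 9.68 and 10.5 CPM (0.99 ± 0.23), against 3.98 and 4.30 CPM in set 1 and 4.01 and 4.90 CPM in set 2 wild type. The BRD9 call was lost without wild-type replicate 1 (adjusted p = 0.0992), BRD7 without its replicate 2 (0.135) or either wild-type library (0.139 and 0.0674), and BCL7B without wild-type replicate 5 (0.0551).

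In the HOXB core the only region called in several knockouts was chr17:46632517-46633540, 67.0 kb below the centre, which fell in 6. The libraries had 2.92 and 3.76 CPM in SMARCD1, 4.02 and 3.32 in BCL11A, 3.85 and 3.61 in BCL11B, 3.73 and 4.69 in SMARCD3, 6.59 and 2.81 in SMARCC1, and 5.14, 3.35, 4.27 and 4.20 in ARID1A knockouts. Wild type had 10.3 and 8.25 CPM in set 1 and 6.02 and 5.34 CPM in set 2, so the set 2 libraries lay below the set 1 libraries, and 1 SMARCC1 library lay above the set 2 libraries. The log2 fold changes against set 1 were -0.98 to -1.47. All of the called clones except those of ARID1A were low on the chromosome 10 stretch, and the part of that event was not tested. The ARID1A call (-1.13 ± 0.25) was kept with any 1 library left out but not by limma on the authors' normalised values (adjusted p = 0.0931), and the other 5 were each lost without wild-type replicate 1 (adjusted p = 0.0627 to 0.295). They were also lost without at least 1 of their own libraries: either BCL11A (0.0588 and 0.172), either BCL11B (0.0743 and 0.098), either SMARCD3 (0.355 and 0.0879), SMARCD1 replicate 1 (0.0543) and SMARCC1 replicate 2 (0.553), and SMARCD3 also without wild-type replicate 2 (0.0586). With all 4 wild-type libraries pooled the SMARCC1 (-0.69, adjusted p = 0.0792) and SMARCD3 (-0.85, adjusted p = 0.148) calls were lost, and the SMARCC1 call also by limma (adjusted p = 0.101).

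In the HOXD core, chr2:176956969-176958410, 42.3 kb below the centre, rose in PHF10 (31.4 and 36.8 CPM), SMARCD2 (30.1 and 31.5 CPM) and SMARCA4 knockouts (31.7, 31.9, 26.9 and 24.7 CPM), against 18.6 and 13.4 CPM in wild type. The log2 fold changes were 1.08 ± 0.20, 0.94 ± 0.20 and 0.83 ± 0.18. Each was lost without wild-type replicate 2 (adjusted p = 0.159, 0.354 and 0.0542), PHF10 also without its replicate 2 (0.0712) and SMARCD2 without either of its libraries (0.0589 and 0.102). At chr2:177042251-177043750, 43.0 kb above the centre, ARID1B knockouts had 5.97 and 5.19 CPM in clone 582_5 and 6.47 and 5.91 CPM in clone 582_7 and wild type 10.7 and 12.0 CPM in set 1 and 13.5 and 12.4 CPM in set 2 (-1.04 ± 0.19, adjusted p = 4.3e-05). All 4 knockout libraries lay below all 4 wild-type libraries, which was a condition for naming this region. The call was lost only by limma on the authors' normalised values (adjusted p = 0.138). Those values hold clone 582_7 alone.

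In the HOXD high flank, chr2:177161615-177162400, the region that rose most in SMARCA4 knockouts, was called higher in 5 others. ARID1A had 8.71, 11.2, 5.74 and 10.5 CPM (1.92 ± 0.31), ARID2 8.22 and 5.15 CPM (1.49 ± 0.35), BRD7 5.41 and 6.67 CPM (1.35 ± 0.35), DPF2 5.51 and 5.62 CPM (1.22 ± 0.35) and ARID1B 3.51, 5.19, 4.98 and 5.25 CPM (0.97 ± 0.27). Wild type had 3.20 and 1.43 CPM in set 1 and 3.01 and 1.87 CPM in set 2. PHF10 (5.01 and 6.30 CPM), PBRM1 (5.13 and 5.36 CPM) and SMARCC1 (4.52 and 5.24 CPM) were close to DPF2 and ARID1B but were not called. Others that were not called, such as BCL11A (0.913 and 1.56 CPM), were not higher than wild type. The ARID1A call was kept in every alternative run, and the other 4 were lost without wild-type replicate 2 (adjusted p = 0.184 to 0.606). They were also lost without ARID2 replicate 1 (0.265), either BRD7 library (0.062 and 0.39), either DPF2 library (0.24 and 0.107), and, for ARID1B, replicate 2 of either clone (0.189 and 0.0574) or wild-type replicate 6 (0.139).

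The member called in most knockouts was chr2:177936656-177937325, 937.0 kb above the HOXD centre, which fell in 8. The libraries had 2.56 and 0.969 CPM in SMARCC1, 1.45 and 2.60 in PHF10, 1.28 and 3.11 in DPF2, 3.35, 2.11, 1.91 and 1.88 in SMARCA4, 2.78 and 2.56 in BCL7A, 2.46 and 3.02 in BCL11A, 3.54 and 2.05 in SMARCD3, and 2.46, 3.35, 3.17 and 4.86 in ARID1A knockouts. Wild type had 6.60 and 7.17 CPM in set 1 and 8.17 and 6.63 CPM in set 2, above all of these. The log2 fold changes were -1.001 to -1.96. The SMARCC1, PHF10, BCL7A, BCL11A and SMARCD3 clones were low on the chromosome 10 stretch, and the part of that event was not tested. The SMARCA4 call (-1.60 ± 0.31, adjusted p = 1.22e-05) was kept in every alternative run. SMARCC1 lost it without its replicate 2 (adjusted p = 0.0579), PHF10 without its replicate 1 (0.236) or wild-type replicate 2 (0.0616), and DPF2 without its replicate 1 (0.372) or wild-type replicate 2 (0.0605). ARID1A lost it in 3 of 12 alternatives, among them without either wild-type library (0.0644 and 0.0968). BCL7A, BCL11A and SMARCD3 each lost it in 6 of 10 alternatives, among them without any 1 of their 4 libraries (0.0757 to 0.5).

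Some regions outside the cores were called strongly in 1 or a few of the other knockouts. In the BRD7 knockout chr17:46131441-46132112, 568.2 kb below the HOXB centre, had 18.2 and 16.5 CPM, against 4.27 and 3.35 CPM in wild type (2.17 ± 0.32, adjusted p = 5.2e-07). In the BCL11A and BCL11B knockouts chr12:54519818-54521159, 120.5 kb above the HOXC centre, had 19.8 and 22.7 CPM and 19.1 and 17.7 CPM, against 6.02 and 7.17 CPM in wild type (1.69 ± 0.26 and 1.49 ± 0.26). SMARCA2 is the alternative ATPase, and its knockout was called at only 1 member, chr17:46805561-46806866, 106.2 kb above the HOXB centre. This region had 9.07 and 10.8 CPM in the knockout and 22.7 and 24.5 CPM in wild type (-1.24 ± 0.20, adjusted p = 1.97e-05). In the DPF2 knockout chr12:54866976-54867761 had 2.57 and 2.16 CPM, against 7.86 and 8.13 CPM in wild type (-1.75 ± 0.30). In the SMARCD3 knockout chr2:177938736-177939633 had 3.24 and 1.76 CPM, against 11.2 and 8.96 CPM in wild type (-2.01 ± 0.30). The BCL11A, BCL11B and SMARCD3 clones were low on the chromosome 10 stretch (0.76, 1.47 and 1.27 CPM), and the part of that event was not tested. The groups did not overlap at any of these regions, which was a condition for naming them, and the calls were kept in every alternative run.

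Clones of 1 gene did not always give the same result. ARID1B clone 582_7 had 49 called regions (9.22% over all regions) and clone 582_5 had 1 (0.275%), each against the wild type of its own set. BCL7B clone 4278_8 had 17 (4.83%) and clone 4278_10 had 2 (0.743%). The difference itself, clone 582_5 minus clone 582_7 of ARID1B, was called at 33 regions (4.97% over all regions), and clone 4278_10 minus clone 4278_8 of BCL7B at 17 (4.31%). It was called at 3 regions for clone 2878_4 minus clone 2878_6 of SMARCA4 (0.224%). For clone 618_10 minus clone 618_3 of ARID1A it was called at 0 regions by edgeR (0.0598%). At an unadjusted p under 0.05 it had 31 of the 594 members, against 8880 of all 145532 regions. The clones of ARID1B and of BCL7B came from different sets, so the clone and its set cannot be told apart. The set 2 clones also had lower total counts per library. These were 5551840 and 5870553 in clone 582_5, against 10227072 and 11266821 in clone 582_7. Clone 4278_10 had 5403614 and 5085811, against 10454248 and 10862856 in clone 4278_8. The part of depth in the counts of calls was not tested. In the summed features, ARID1B knockouts had a higher HOXD high flank, at 0.23 ± 0.055, against 18.5% of all features called, and clone 582_7 alone had 234.6 and 237.9 CPM, against 172.1 and 178.1 CPM in set 1 wild type (0.43 ± 0.077).

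The knockdown table gave a second measurement of the domains with other libraries. SMARCA4 knockout cells with a control knockdown had 26 members that fell (4.38%) and 8 that rose (1.35%), set against wild-type cells with a control knockdown, and 8.26% and 1.49% of all regions did so. In the HOXA flanks 12 fell and 1 rose, and in the HOXD flanks 9 fell and 3 rose. The HOXB flanks had 0 that fell and 1 that rose, and the HOXC flanks 3 that fell and 2 that rose. The count of 34 was 10 or 13 without SMARCA4 knockout replicate 1 or 2 and 10 or 15 without control replicate 1 or 2. Of the 131 members called in the SMARCA4 knockouts of the first table, 22 were called here, 17 lower and 5 higher in both, which is 16.79% of the first list and 64.71% of the second. Over all regions the shares were 31.69% and 71.08%.

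The largest decrease and the largest increase of this comparison that met the conditions for naming were both in the HOXC high flank, and both calls were kept in every alternative run. At chr12:55319832-55320618, 920.2 kb above the centre, SMARCA4 knockout cells with control knockdown had 2.00 and 3.64 CPM and wild-type cells with control knockdown 15.2 and 12.7 CPM (-2.31 ± 0.37, adjusted p = 3.02e-06). In the knockout table the same region had 1.61, 4.45, 2.47 and 1.77 CPM in SMARCA4, 2.46, 2.93, 2.196 and 2.21 CPM in ARID1A and 3.79 and 2.32 CPM in ARID2 knockouts, against 9.22 and 7.89 CPM in wild type. The ARID2 call (-1.49 ± 0.30) was lost without ARID2 replicate 2 (adjusted p = 0.0829). At chr12:54763919-54764528, 364.2 kb above the centre, SMARCA4 knockout cells with control knockdown had 17.8 and 15.4 CPM and wild-type cells with control knockdown 4.10 and 3.60 CPM (2.1 ± 0.36, adjusted p = 1.22e-05). The SMARCA4 knockouts of the first table had 12.6, 18.1, 14.03 and 17.3 CPM there, against 4.37 and 4.42 CPM in wild type (1.82 ± 0.28, adjusted p = 2.56e-08).

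Knockdown of SMARCA4 in wild-type cells gave 5 members that fell (0.84%) and 2 that rose (0.34%), against 4.96% and 0.773% of all regions. With a replicate block 13 fell and 23 rose, so the balance of directions turned. The double knockdown of SMARCA4 and ARID2 gave 12 that fell (2.02%) and 2 that rose (0.34%), against 4.00% and 0.618%. All of these were in flanks. The 7 calls of the SMARCA4 knockdown dropped to between 2 and 4 without any 1 of the 4 libraries, and the 14 of the double knockdown to between 2 and 7, with 2 left without double knockdown replicate 1. At the HOXC region 920.2 kb above the centre the SMARCA4 knockdown had 4.59 and 4.63 CPM (-1.60 ± 0.35, adjusted p = 0.00156) and the double knockdown 4.23 and 6.43 CPM (-1.41 ± 0.35, adjusted p = 0.00668), against 15.2 and 12.7 CPM in the control knockdown. At the HOXD region chr2:177326400-177327413, 326.9 kb above the centre, the SMARCA4 knockdown had 4.91 and 4.96 CPM (-1.78 ± 0.37, adjusted p = 0.000828) and the double knockdown 5.12 and 2.51 CPM (-2.11 ± 0.38, adjusted p = 0.00015), against 16.7 and 17.2 CPM in the control knockdown. At chr7:28031062-28032458, 831.8 kb above the HOXA centre, the SMARCA4 knockdown had 22.7 and 13.1 CPM (1.36 ± 0.36) and the double knockdown 27.8 and 17.7 CPM (1.71 ± 0.36), against 7.41 and 6.56 CPM in the control knockdown.

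Those knockdown libraries lay outside the control range at each of the 3 regions, which was a condition for naming them. The SMARCA4 knockdown call and the double knockdown call at the HOXD region, and the SMARCA4 knockdown call at the HOXC region, were kept in every alternative run. The double knockdown call at the HOXC region was lost without control replicate 1 (adjusted p = 0.105) or double knockdown replicate 1 (0.219). At the HOXA region the SMARCA4 knockdown call was lost without either control library (0.0908 and 0.144) or knockdown replicate 1 (0.306), and the double knockdown call without control replicate 2 (0.051) or double knockdown replicate 1 (0.107). The ARID1A knockouts of the first table had 11.4, 13.1, 13.1 and 13.9 CPM at this HOXA region, against 5.82 and 7.89 CPM in wild type (0.92 ± 0.23), a call lost without wild-type replicate 1 (adjusted p = 0.158). The SMARCA4 knockouts of the first table had 8.18, 7.34, 7.52 and 7.84 CPM there and were not called (0.18 ± 0.24, adjusted p = 0.653). SMARCA4 knockout cells with control knockdown had 13.2 and 11.3 CPM, against 7.41 and 6.56 CPM in wild-type cells with control knockdown, and were not called either (0.81 ± 0.36, adjusted p = 0.172).

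A region of the HOXB high flank fell in ARID2 knockout cells of both tables. At chr17:46894222-46894890, 194.6 kb above the centre, the ARID2 knockout of the first table had 9.17 and 5.36 CPM and wild type 17.2 and 20.3 CPM (-1.37 ± 0.22, adjusted p = 3.63e-06), and the call was kept in every alternative run. The SMARCA4 knockouts had 12.8, 16.1, 15.7 and 19.4 CPM and were not called. In the knockdown table ARID2 knockout cells with control knockdown had 7.66 and 5.79 CPM (-1.48 ± 0.36, adjusted p = 0.0296) and the double knockdown 8.01 and 4.24 CPM (-1.60 ± 0.36, adjusted p = 0.00234), against 19.1 and 18.5 CPM in wild-type cells with control knockdown. This was the only member called for ARID2 knockout cells with control knockdown, against 0.418% of all regions, and it was lost without any 1 of the 4 libraries (adjusted p = 0.147 to 0.424). The double knockdown call was lost without its replicate 2 (adjusted p = 0.147). ARID2 knockdown alone had 11.0 and 13.5 CPM there (-0.63, adjusted p = 0.988). SMARCA4 knockdown had 14.5 and 10.1 CPM (-0.60, adjusted p = 0.343) and SMARCA4 knockout cells with control knockdown 10.2 and 12.8 CPM (-0.71, adjusted p = 0.213). These 3 differences from the control knockdown were of like size, and none was called.

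Both HOXD flank regions that recurred in the knockouts were called in the knockdown table too, while the HOXD core regions 5.4 kb above and 42.3 kb below the centre were called in none of its 7 comparisons (lowest adjusted p = 0.379 and 0.813). At chr2:177161615-177162400 the double knockdown had 8.01 and 6.75 CPM (1.87 ± 0.44, adjusted p = 0.00409) and SMARCA4 knockout cells with control knockdown 6.62 and 7.01 CPM (1.74 ± 0.44, adjusted p = 0.00364), against 1.66 and 2.44 CPM in wild-type cells with control knockdown. The double knockdown call was lost without control replicate 1 (adjusted p = 0.152) or double knockdown replicate 1 (0.0845). At chr2:177936656-177937325 the double knockdown had 3.45 and 3.30 CPM (-1.25 ± 0.38, adjusted p = 0.0345) and SMARCA4 knockout cells with control knockdown 2.37 and 1.62 CPM (-2.001 ± 0.40, adjusted p = 0.000165), against 8.39 and 7.72 CPM in wild-type cells with control knockdown. In the HOXC core, chr12:54372575-54373217 had 2.62 and 2.83 CPM in SMARCA4 knockout cells with control knockdown and 7.51 and 7.85 CPM in wild-type cells with control knockdown (-1.49 ± 0.39, adjusted p = 0.00596). The calls for SMARCA4 knockout cells at these 3 regions, and for the double knockdown at the second, were chosen for the knockout results and were not rerun under the alternatives.

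Other knockdown comparisons gave no called member without a replicate block. SMARCA4 knockdown in ARID2 knockout cells had 0 by edgeR and 0 by DESeq2, against 0.195% of all regions called. At an unadjusted p under 0.05 it had 78 of the 594 members, against 13846 of all 145617 regions. With a replicate block it had 35, all higher. ARID2 knockdown had 0 in wild-type cells and 0 in SMARCA4 knockout cells, with 20 and 29 members at an unadjusted p under 0.05 (6167 and 6524 of all regions). It was called nowhere in the genome, by edgeR or by DESeq2. The 3 tests of a difference between backgrounds also called no region of the genome, with 10 to 16 members at an unadjusted p under 0.05 (4040 to 7564 of all regions).

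Of the summed features in the knockdown table, the HOXB core and the HOXC high flank rose in the SMARCA4 knockdown, against 22.3% of all features called. The HOXB core summed to 213.6 and 220.0 CPM in the SMARCA4 knockdown and to 141.7 and 173.2 CPM in the control knockdown (0.46 ± 0.13, adjusted p = 0.028). The HOXC high flank was 685.8 ± 2.6 CPM in the SMARCA4 knockdown and 549.0 ± 6.4 CPM in the control knockdown (SD, n = 2 each; 0.32 ± 0.095). It was 677.4 ± 32.5 CPM (SD, n = 2) in SMARCA4 knockout cells with control knockdown (0.30 ± 0.095), where it was the 1 feature called, against 13.3% of all features. The HOXB core call was lost without control replicate 2 (adjusted p = 0.314). The HOXC high flank call in the SMARCA4 knockdown was lost in 3 of 10 alternatives, among them without either control library. In SMARCA4 knockout cells with control knockdown it was lost in 7 of 10, among them without any 1 of the 4 libraries. The HOXD core, which rose in the SMARCA4 knockouts of the first table, was 236.5 ± 0.9 CPM in SMARCA4 knockout cells with control knockdown and 200.4 ± 13.9 CPM in wild-type cells with control knockdown (SD, n = 2 each), and was not called (0.24 ± 0.094, adjusted p = 0.101). SMARCA4 knockdown gave 220.4 and 223.6 CPM, against 190.6 and 210.2 CPM in the control knockdown, and was not called (0.15 ± 0.095, adjusted p = 0.247).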

How the data were processed

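Chromatin accessibility was measured by ATAC-seq, with digitonin and TDE1 transposase per the labels' protocols. Per the submitters' processing notes, the build was hg19 and the tools included MACS2 2.1.1.20160309, Bowtie2 2.2.4 and Picard 1.118, with no parameters given. The authors deposited raw read counts per region in 2 tables, of 145536 regions and 56 libraries here for knockouts and of 145730 regions and 16 libraries for knockdowns, and a normalised table of 48 libraries on a log2-like scale, used only as an alternative. The deposited log2 values had slopes of 0.528 to 0.81 against log2 CPM of the counts, so their units are compressed. Of 74 samples in the labels 72 matched a column. The other 2, wild-type replicates 3 and 4, were not analysed here, and 2 further library columns that match no sample were not used. The median count of 17 to 43 per region limits the precision at weak regions.

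The counts were tested with edgeR 4.0.16 (R 4.3.3), with TMM normalisation, its filter on low counts and the quasi-likelihood test over all groups of a table. The tests covered 145532 regions with 28 residual degrees of freedom for knockouts and 145617 with 8 for knockdowns, with Benjamini-Hochberg adjustment over all of them. CPM use the normalised library sizes. Genes with 2 clones were tested as the mean of the clones, each against its own wild-type set. Cores and flanks were summed and tested among counts of 1 Mb bins. Regions were named by log2 fold change among those called, above the median accessibility and with no overlap between groups: up to 3 per direction and domain in the larger comparisons and 1 per direction otherwise. Most of these are given as counts. The members, lists and rules were chosen with earlier results of these data known. Parts of the rules that need gene annotation could not be applied, since no hg19 annotation was used, and starts are as deposited. Whether the libraries of a group were grown separately is not stated; the p-values reflect library-to-library spread alone, which may be technical. These counts do not measure loss of the targeted product. The code was tested on simulated data. Alternatives for single regions were RLE factors, no filter, DESeq2 1.42.0, limma 3.58.1 on the deposited log2 values and pooled wild type. A replicate block, and each library left out in turn, were also run. For knockouts, limma and the block used set 1 libraries only. Leaving out a library kept the dispersion trend and the regions tested from the fit to all libraries. Summed features were rerun with RLE factors, a replicate block, and other core and bin sizes. For them only wild-type or control knockdown libraries were left out in turn.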

Additional observations from a re-analysis of the deposited data

Results flagged for a closer look

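At 12 core regions the clones of 1 gene differed by edgeR's quasi-likelihood test of the difference between clones, each set against the wild type of its own set. This test was chosen after the data were seen and was not rerun under the alternatives. For ARID1B and BCL7B the clones came from different sets, so clone and set cannot be told apart.

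For ARID1B, clone 582_5 minus clone 582_7 was -2.69 (log2, ± 0.58 SE, adjusted p = 0.000788) at chr2:177010730-177011314, with 2.11 and 1.00 CPM in clone 582_5 and 9.11 and 10.0 CPM in clone 582_7. It was -2.44 (± 0.52, adjusted p = 0.00079) at chr12:54367390-54368082, with 2.11 and 1.34 CPM in clone 582_5 and 9.75 and 7.60 CPM in clone 582_7, and -1.82 at the neighbouring chr12:54368271-54368933. Clone 582_5 was the higher at chr17:46632517-46633540 (1.93, with 8.95 and 6.36 CPM in clone 582_5 and 3.07 and 3.47 CPM in clone 582_7), at chr2:176971284-176972403 (1.85) and at chr7:27214771-27215315 (1.56). The difference was -1.06 at chr7:27263195-27264358. At all 7 regions the libraries of the clones did not overlap.

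For BCL7B, clone 4278_10 minus clone 4278_8 was 2.21 at chr7:27152854-27153355, 1.87 at chr17:46632517-46633540, -1.16 at chr12:54332051-54333925 and -1.01 at chr2:176956969-176958410. At the HOXC region chr12:54332051-54333925, the HOXC core region that fell in the DPF2 knockout, clone 4278_10 had 19.5 and 21.9 CPM and clone 4278_8 had 47.6 and 41.0 CPM.

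For SMARCA4, whose clones share a set, clone 2878_4 minus clone 2878_6 was 1.02 (± 0.25, adjusted p = 0.0428) at chr2:177042251-177043750, with 13.4 and 13.01 CPM in clone 2878_4 and 6.62 and 6.40 CPM in clone 2878_6. The 32 tests for a library standing apart within the 4 wild-type libraries marked none.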

How the results depend on the processing

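No named result changed sign, and 56 of 168 kept their call under every alternative run. Named regions kept the call in 1242 alternative values and lost it in 270, and summed features in 156 and 46.

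With all wild-type libraries pooled, called members were 211 for SMARCA4 (131 otherwise; 84 lower and 127 higher), 142 for ARID1A (70 otherwise; 74 lower and 68 higher), 55 for SMARCC1 (29), 35 for ARID2 (8) and 90 for the 18 other knockouts (47). By limma on the deposited log2 values they were 16 for ARID2 and 120 for the other knockouts with set 1 clones. Those values hold set 1 libraries only, so SMARCC2 was absent. ARID1B and BCL7B were then clones 582_7 and 4278_8 alone, which had 49 and 17 called members by edgeR. DESeq2 called 3 for the SMARCA4 knockdown (7 by edgeR) and 9 for the double knockdown (14). With bins of 0.5 Mb 1 summed feature was called in the knockdown table (3 otherwise).

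Whether replicate numbers pair the libraries is not given by the labels. In the knockout table they mostly did not go together, and in the knockdown table they mostly did, though not in every pair. The correlation of same-numbered deviations was -0.178 to 0.273 over 276 pairs of knockout groups, with 41 over 0.1. Over 28 pairs of knockdown groups it was 0.054 to 0.449, with 25 over 0.1. With a replicate block, run on set 1 libraries alone for knockouts, called members were 91 for the other knockouts with set 1 clones. SMARCC2 was absent there too, and ARID1B and BCL7B were clones 582_7 and 4278_8 alone. In the knockdown table the block gave 36 for the SMARCA4 knockdown (13 lower and 23 higher) and 28 for the double knockdown. It gave 35 (all higher) for SMARCA4 knockdown in ARID2 knockout cells. With control knockdown it gave 53 for SMARCA4 knockout cells and 6 for ARID2 knockout cells. Called summed features were then 33 in the set 1 knockouts (18 otherwise, with both sets) and 16 in the knockdown table.

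With 1 library left out, called members were 64 to 120 for SMARCA4, 39 to 68 for ARID1A, 11 to 19 for SMARCC1, 3 to 11 for ARID2, 26 to 48 for the 18 others and 6 to 21 between the wild-type sets. They were 2 to 4 for the SMARCA4 knockdown, 2 to 7 for the double knockdown, 10 to 15 for SMARCA4 knockout cells with control knockdown, 0 to 0 for ARID2 knockout cells with control knockdown, and 0 to 1 for ARID2 knockdown in SMARCA4 knockout cells. For SMARCA4 knockdown in ARID2 knockout cells, ARID2 knockdown in wild-type cells and the differences between backgrounds the range was 0 to 0. With 1 wild-type or control knockdown library left out, called summed features were 8 to 16 in the knockouts, with 8 without wild-type replicate 1. In the knockdown table they were 0 to 4, with 0 without control replicate 2. Other libraries were not left out for the sums. A lone library is assumed to vary like the other groups. The comparison of wild-type sets has no value with pooled wild type, limma or the block. The cause of these shifts was not tested. Knockdown groups rest on 8 residual degrees of freedom, and median counts of 17 to 43 per region limit what weak regions can show.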
